A study of Mus musculus with 14 samples.

Results

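The transcripts of the cytosolic ribosomal proteins were followed in C2C12 cells, a mouse myoblast line. Members were the protein-coding genes whose symbol begins with Rps or Rpl and a digit, together with Rpsa, Rplp0, Rplp1 and Rplp2, leaving out the ribosomal S6 kinases and the genes named as pseudogenes. The rule gave 86 of the 49585 genes in the table, 34 with small-subunit symbols and 52 with large-subunit symbols. It also takes in 2 genes that are not ribosome subunits, Rps19bp1, whose product binds the small-subunit protein Rps19, and Rpl7l1, a relative of Rpl7 found in ribosome assembly. All 14 libraries came from C2C12 cells that carried a short hairpin RNA. They are 4 of activated shFoxM1 cells, 3 of activated shControl cells, 4 of quiescent shFoxM1 cells and 3 of quiescent shControl cells, where shFoxM1 targets the forkhead transcription factor Foxm1 and shControl is the control hairpin. Quiescent cells were held in suspension in methylcellulose with serum, and the labels do not say how cells were activated or for how long. The labels name no separate cultures, so the p-values describe variation among the libraries sequenced, and part or all of it may be technical.

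Ribosomal proteins coat the ribosomal RNA of the small and the large subunit, and growing cells spend much of their mRNA on them. Many of their mRNAs begin with a run of pyrimidines (a terminal oligopyrimidine tract), through which their translation is held back when mTOR signalling is low, by way of the RNA-binding protein Larp1. Several members have duties outside the ribosome, such as Rpl5 and Rpl11, which bind the p53 inhibitor Mdm2. RNA was taken in bulk, so fewer cells with a transcript and less of it per cell cannot be told apart.

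The values are FPKM (fragments per kilobase of transcript per fixed number of mapped fragments). Depth, estimated from the smallest steps between low values, was 2.63e+07 to 3.46e+07 fragments per library. All 6 myoblast markers reached a mean of 1 FPKM in every group. The summed FPKM of 6 muscle fibre markers was 4.23 to 56.6 in activated shFoxM1 libraries, 16.8 to 43.5 in activated shControl libraries, 59.9 to 607 in quiescent shFoxM1 libraries and 183 to 1199 in quiescent shControl libraries. Endothelial, epithelial and fat marker sums stayed at or under 0.54 FPKM, and 4 blood markers summed to 1.04 to 13.6 FPKM. Foxm1 was at 11.2 to 27.6 FPKM in activated shFoxM1 libraries, against 34.9 to 37.1 FPKM in activated shControl libraries. In quiescent cells it was at 6.61 to 15.6 FPKM with shFoxM1 and 10.0 to 23.9 FPKM with shControl, so there the hairpins overlapped. Among quiescent libraries, shFoxM1 replicate 4 and shControl replicate 3 had the highest summed level of the members in their groups. Results that rest on them are given with and without them. Mitochondrially encoded genes made up 6.19 to 9.06% of the protein-coding FPKM in activated shFoxM1 libraries, 5.85 to 10.5% in activated shControl libraries, 5.51 to 16.5% in quiescent shFoxM1 libraries and 11.004 to 12.417% in quiescent shControl libraries. In quiescent shFoxM1 cells this share was lowest in replicate 4, where the members' sum was highest, and highest in replicate 3, where that sum was lowest; its part in the results was not tested beyond scaling to nuclear genes.

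Ribosomal protein mRNAs were among the most abundant of these cells. Of the 86 members, 51 averaged at least 1000 FPKM over the 14 libraries, and 46 were among the 100 protein-coding genes of highest mean (of 21734 ranked). The members lie on 19 chromosomes, with 14 of them on chromosome 7. The test required at least 1 FPKM in at least 3 libraries, which 83 members passed. The other 3 are paralogs with narrow expression elsewhere. Rpl10l, best known from the testis, was listed at 0 in every library. Rpl39l, also a testis gene, averaged at most 0.02 FPKM in any group, and Rpl3l, a striated muscle relative of Rpl3, at most 0.06 FPKM. Among the members tested the median was 1210 FPKM. Rps27 was highest at 4668 FPKM, followed by Rpl41 at 4598 FPKM and Rplp1 at 3764 FPKM. The lowest were Rps2 at 29.9 FPKM, Rpl12 at 35.5 FPKM, Rpl7l1 at 36.1 FPKM, Rps19bp1 at 52.7 FPKM and Rpl29 at 53.0 FPKM. The low value of Rps2 stands beside a far higher one of a gene that shares its sequence, as described further on.

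Summed over the 86 members, the level was 115037, 116831, 123370 and 123201 FPKM in activated shFoxM1 libraries and 141288, 153237 and 152107 FPKM in activated shControl libraries. It was 90460, 92654, 77875 and 115400 FPKM in quiescent shFoxM1 libraries and 91558, 102810 and 133232 FPKM in quiescent shControl libraries. Every activated shControl library lay above every other library, and the activated shFoxM1 libraries overlapped the quiescent ones through quiescent shFoxM1 replicate 4 and quiescent shControl replicate 3. The ratio of group means, activated over quiescent, was 1.27 in shFoxM1 cells and 1.36 in shControl cells. As a share of the FPKM of all protein-coding genes, the members made up 17.96% ± 1.23 in activated shFoxM1 cells, 20.6% ± 1.41 in activated shControl cells, 16.7% ± 2.05 in quiescent shFoxM1 cells and 18.5% ± 2.80 in quiescent shControl cells (SD, n = 4 for shFoxM1 groups and 3 for shControl groups). Activated and quiescent libraries overlapped in this share with either hairpin, and of all pairs of groups only activated shControl and quiescent shFoxM1 libraries did not overlap (19.4 to 22.2% and 14.4 to 19.3%). The summed FPKM of nuclear protein-coding genes was 587838 to 629966 in activated shFoxM1 libraries and 646409 to 680068 in activated shControl libraries, against 451653 to 563549 in quiescent shFoxM1 libraries and 504562 to 544077 in quiescent shControl libraries. Genes of the small subunit supplied 43.4 to 45.3% of the sum over subunit genes in every library.

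**Figure D1:**
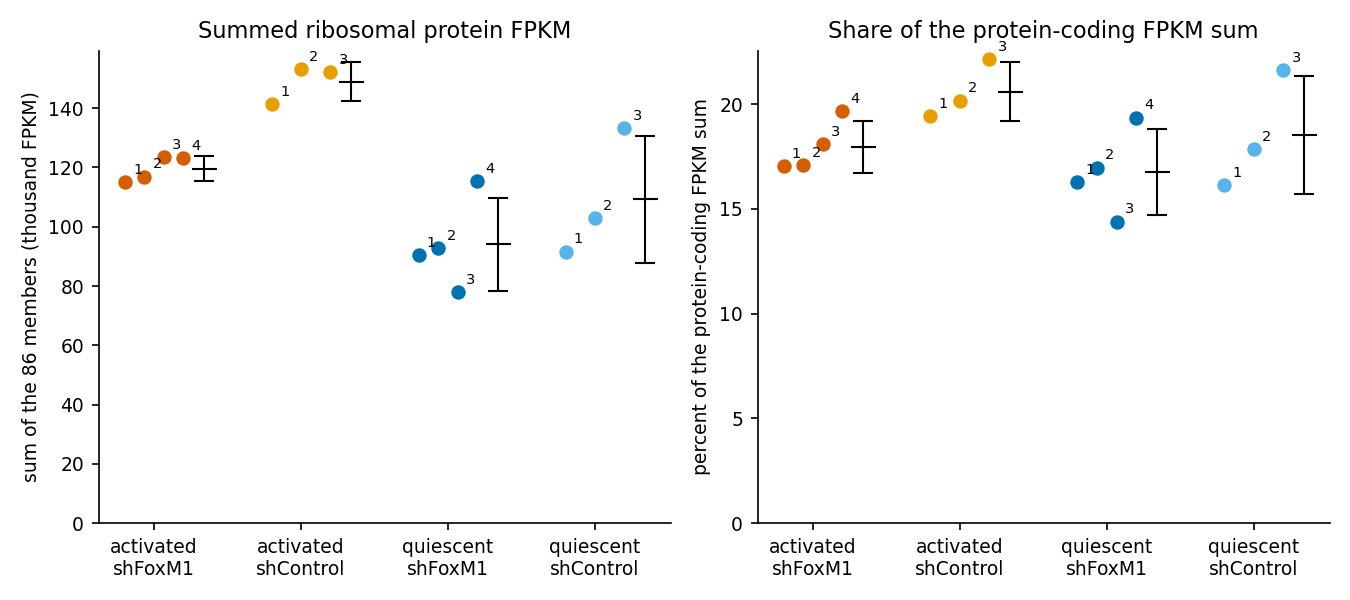
Summed FPKM of the 86 ribosomal protein genes (left panel, axis in units of 1000 FPKM) and their percent of the protein-coding FPKM sum (right panel), by library. Points are libraries with their replicate number, and bars are group means with SD. The 3 activated shControl libraries have the highest sums, 141288 to 153237 FPKM, while the shares of activated and quiescent libraries overlap with either hairpin.

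On the deposited FPKM scale, activation raised many ribosomal protein transcripts in shControl cells by a moderate amount, though quantile normalization turned the members' median to -0.03. Of the 83 members tested, 35 rose and 0 fell at an adjusted p below 0.05 (limma on log2(FPKM + 1), Benjamini-Hochberg over all 12432 genes tested). Of all genes tested, 11.7% rose and 16.5% fell in this comparison. All 83 members had a log2 difference above 0, as did 41.9% of all genes, and their median was 0.46, against -0.11 over all genes tested. The median corresponds to a 1.38-fold difference on the log2(FPKM + 1) scale. A total of 24 members reached 1.5-fold and 0 reached 2-fold, counts that were not taken over all genes. In 53 members every activated library lay above every quiescent one, which 17.5% of all genes did. The median was 0.46 over small-subunit genes (14 of 33 rose) and 0.45 over large-subunit genes (19 of 48 rose).

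The members of largest rise were Rps27l and Rps19bp1, of which Rps19bp1 is not a ribosome subunit. Rps27l, a paralog of Rps27 and a known target of p53, had 629, 665 and 617 FPKM in activated shControl libraries, against 304, 289 and 391 FPKM in quiescent shControl libraries. Its groups did not overlap, and its log2 difference was 0.97 ± 0.18 (SE, limma adjusted p = 0.00167). Rps19bp1, known in human cells as an activator of the deacetylase Sirt1, had 57.2, 76.7 and 72.2 FPKM in activated shControl libraries, against 37.4, 34.3 and 38.9 FPKM in quiescent shControl libraries. That is a log2 difference of 0.87 ± 0.15 (limma adjusted p = 0.00139), again without overlap. Rps12 of the small subunit came next with 3768, 4629 and 4292 FPKM in activated shControl libraries, against 2341, 2516 and 2607 FPKM in quiescent shControl libraries (0.76 ± 0.16, limma adjusted p = 0.00339). Rpl35a, a large-subunit protein whose gene is mutated in some cases of Diamond-Blackfan anaemia in humans, rose by 0.75 ± 0.16 (limma adjusted p = 0.0039).

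The acidic proteins of the ribosomal stalk, which recruits elongation factors, rose together. Rplp1 had 5128, 5416 and 5237 FPKM in activated shControl libraries, against 2830, 2768 and 3828 FPKM in quiescent shControl libraries, a log2 difference of 0.76 ± 0.18 (limma adjusted p = 0.00628). Its partner Rplp2 rose by 0.69 ± 0.18 and the stalk base Rplp0 by 0.63 ± 0.21 (limma adjusted p = 0.0128 and 0.0354). Of the Mdm2-binding pair, Rpl11 rose by 0.58 ± 0.16 (limma adjusted p = 0.0153), while Rpl5 had a difference of 0.32 ± 0.14 that missed the threshold (limma adjusted p = 0.112). Rps6, the small-subunit protein phosphorylated downstream of mTOR, rose by 0.45 ± 0.15 (limma adjusted p = 0.0418). Rpsa, also known as the laminin receptor precursor, rose by 0.69 ± 0.19 (limma adjusted p = 0.0153).

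At the other end stood the most abundant member. Rps27 had 5854, 6221 and 5890 FPKM in activated shControl libraries, against 3950, 5200 and 7600 FPKM in quiescent shControl libraries. The quiescent libraries enclosed the activated ones, and the log2 difference was 0.15 ± 0.21 (limma adjusted p = 0.606). That enclosure rests on quiescent shControl replicate 3, since the other quiescent libraries lay below every activated one. The log2 difference was 0.40 without quiescent shControl replicate 3 and -0.07 without quiescent shControl replicate 1. Rps3a1, the member with the smallest difference, averaged 291 ± 52.9 FPKM in activated and 287 ± 41.1 FPKM in quiescent shControl cells (SD, n = 3 each), with overlapping libraries.

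The number of members called depended on single libraries. Without quiescent shControl replicate 3, 52 members rose in shControl cells (8.38% of all genes). Without quiescent shControl replicate 2, 8 of 83 rose, near the 6.44% of all genes, and without replicate 1, 13 did (10.6% of all genes). Leaving out activated shControl replicate 2 or replicate 3 gave 16 each (7.96% and 10.4% of all genes). Without both quiescent libraries of highest summed level, 64 of 83 members rose in shFoxM1 cells (20.4% of all genes). In shControl cells 67 of 83 rose (10.9% of all genes), and 0 fell in either. Both libraries were picked for that high level, so leaving them out raises the members' activation differences by construction.

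In shFoxM1 cells activation gave a similar picture. Again 35 of 83 members rose and 0 fell, where 18.3% of all genes rose and 12.3% fell. The members' median log2 difference was 0.38 (1.31-fold), against 0.03 over all genes tested, and 82 of 83 members were above 0 (52.2% of all genes). In 37 members the activated libraries lay wholly above the quiescent ones, against 17.3% of all genes. Without quiescent shFoxM1 replicate 4, 56 members rose (19.8% of all genes), without replicate 3, 21 did (12.9%), and without replicate 1, 23 did (15.3%).

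Rps19bp1 led here, with 68.2, 71.6, 76.2 and 63.1 FPKM in activated shFoxM1 libraries, against 33.6, 33.8, 31.3 and 43.5 FPKM in quiescent shFoxM1 libraries. Its groups did not overlap (log2 difference 0.96 ± 0.13, limma adjusted p = 0.00024). Rps27l followed with 528, 598, 596 and 544 FPKM in activated shFoxM1 libraries, against 305, 281, 280 and 440 FPKM in quiescent shFoxM1 libraries (0.82 ± 0.15, limma adjusted p = 0.00149). Even the high quiescent library, replicate 4, lay below every activated one. The large-subunit genes Rpl14 (0.76 ± 0.16) and Rpl8 (0.75 ± 0.18) came next (limma adjusted p = 0.00335 and 0.00724). Rpl14 had 682, 710, 786 and 780 FPKM in activated shFoxM1 libraries, against 426, 432, 361 and 547 FPKM in quiescent shFoxM1 libraries.

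Stalk genes rose in shFoxM1 cells too, Rplp0 by 0.65 ± 0.18, Rplp2 by 0.54 ± 0.16 and Rplp1 by 0.53 ± 0.15 (limma adjusted p = 0.0139, 0.0184 and 0.0169). Rpl5 (0.41 ± 0.13) and Rpl11 (0.45 ± 0.14) both rose (limma adjusted p = 0.0228 and 0.0245), as did Rps6 (0.50 ± 0.13, limma adjusted p = 0.0119) and Rpsa (0.64 ± 0.16, limma adjusted p = 0.00939). Rps27 was again not called, with 3647, 3692, 3918 and 4033 FPKM in activated shFoxM1 libraries, against 3853, 3823, 3242 and 4434 FPKM in quiescent shFoxM1 libraries (0.00 ± 0.18, limma adjusted p = 0.996). Rps27rt was the only member with a difference below 0, at -0.32 ± 0.25 (limma adjusted p = 0.356).

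The lists called in shFoxM1 and shControl cells shared 30 members, 85.7% of each list. Called in shFoxM1 cells alone were Rpl12, Rpl5, Rpl9, Rps15a and Rps2, and in shControl cells alone Rpl36, Rpl36al, Rps16, Rps25 and Rps27a. Across the 83 members the log2 differences of both activations had a Pearson r of 0.68 and a Spearman rho of 0.72. Across all 12432 genes tested these were 0.89 and 0.87. Both sets of points come from separate libraries but share gene length and base composition.

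**Figure D2:**
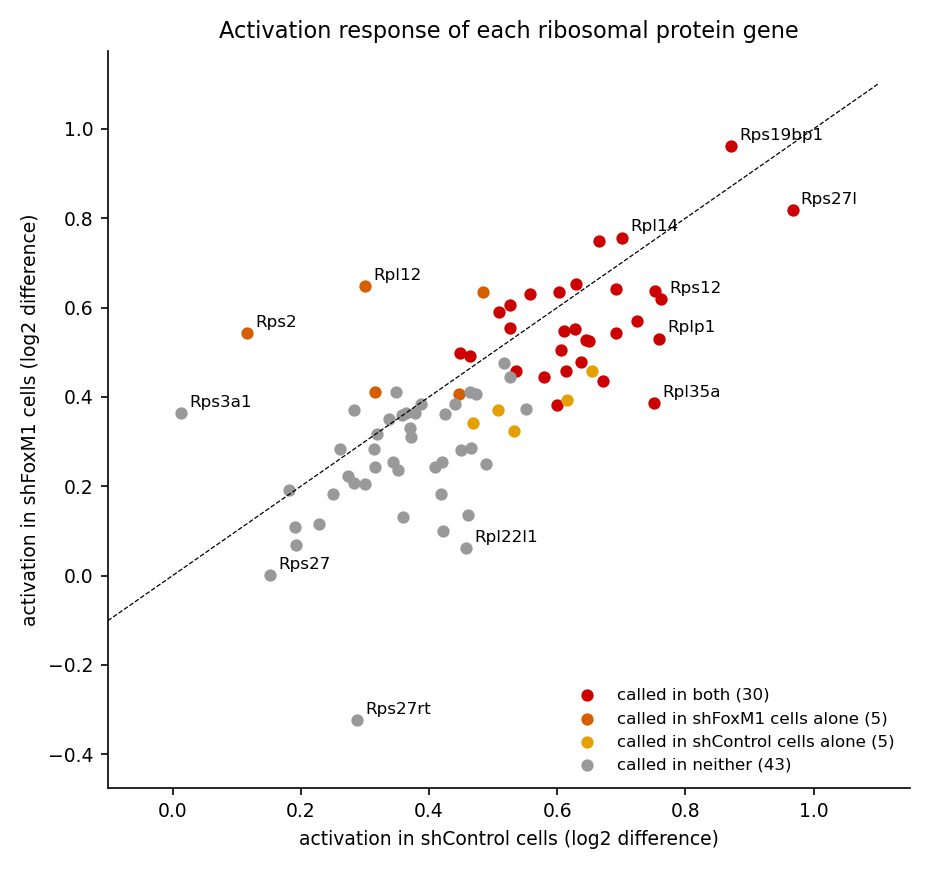
Log2 difference on activation (limma, log2(FPKM + 1)) of each of the 83 ribosomal protein genes tested, in shFoxM1 cells (vertical axis) against shControl cells (horizontal axis). The dashed line marks equal differences and colours mark calls. Of the 83 genes, 30 were called in both, with Rps27l and Rps19bp1 at the upper end, and Rps27rt alone lies below 0 in shFoxM1 cells.

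How many members passed depended on how the libraries were put on a common scale. When libraries were scaled to an equal sum of nuclear protein-coding FPKM, which contains the members, 5 of 83 members rose in shFoxM1 cells and 5 in shControl cells, a share near that of all genes (7.6% in shFoxM1 and 4.76% in shControl cells). The members' median was then 0.07 in shFoxM1 cells and 0.11 in shControl cells, while that of all genes was -0.24 in shFoxM1 cells and -0.41 in shControl cells. Relative to the median of all genes, the members' median was therefore higher by 0.32 in shFoxM1 cells (0.36 as deposited) and by 0.52 in shControl cells (0.57 as deposited). With median-of-ratios scaling 21 rose in shFoxM1 cells and 42 in shControl cells, where 1982 and 2017 of all 12432 genes rose. The distances from the median of all genes were then 0.35 with shFoxM1 and 0.59 with shControl. With quantile normalization 7 members rose and 4 fell in shFoxM1 cells, and 3 rose and 6 fell in shControl cells. Of all genes, 16.7% rose with shFoxM1 and 14.5% with shControl, and 1679 and 1518 of 12432 fell. The members' median was then 0.01 in shFoxM1 cells and -0.03 in shControl cells, and its distance from that of all genes was -0.0031 with shFoxM1 and -0.036 with shControl. That method gives every library the same set of values, and the members hold many of the highest ranks. After a smooth dependence on GC content and on transcript length was taken out, 27 rose in shFoxM1 cells and 23 in shControl cells, and 0 fell in either (21.5% of all genes rose with shFoxM1 and 17.1% with shControl). The members' median longest transcript was 1076 bases, against 3201 bases over all genes tested. GC content and length were removed together, so their parts were not told apart.

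**Figure D3:**
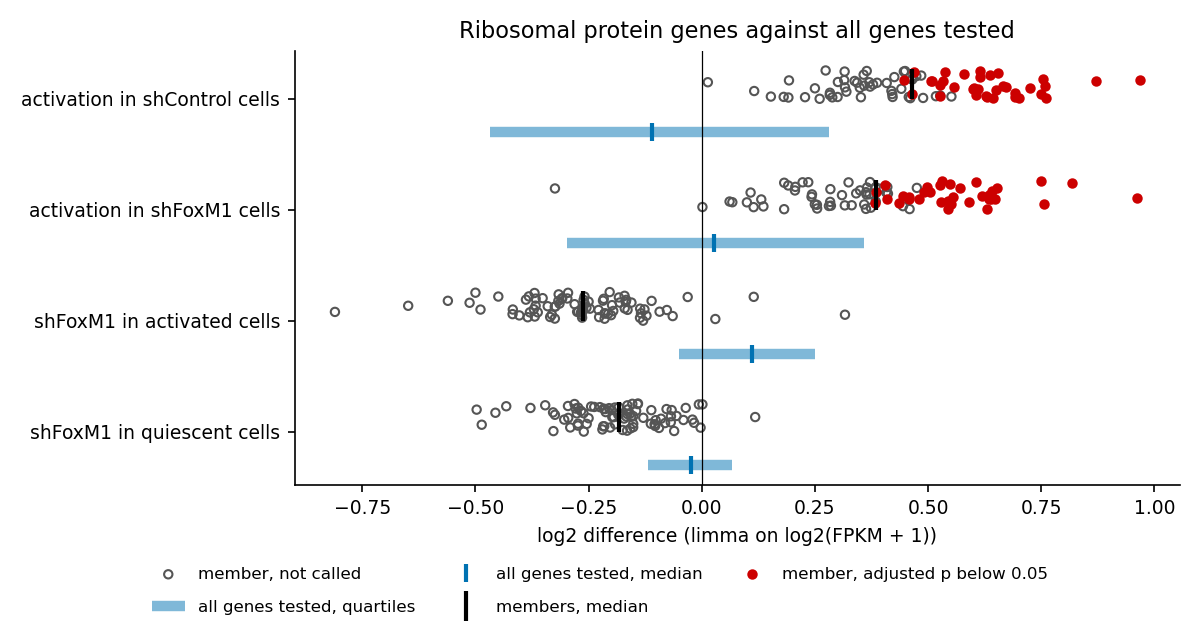
Log2 difference of each of the 83 ribosomal protein genes tested (circles, filled where adjusted p was below 0.05) in 4 comparisons, limma on log2(FPKM + 1), with the members' median as a black bar. The blue band gives the quartiles and median over all 12432 genes tested. Members lie to the right on activation (medians 0.38 in shFoxM1 and 0.46 in shControl cells) and to the left with shFoxM1 (medians -0.26 in activated and -0.18 in quiescent cells), where 0 were called. The sign turns for activation in shControl cells under quantile normalization (-0.03) and for shFoxM1 in activated cells under an equal sum of all FPKM (0.21).

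With the Foxm1 hairpin the members were lower as deposited, by an amount that no single gene's adjusted test called, and in activated cells the sign of their median turned when libraries were rescaled to an equal sum of all FPKM. In activated cells 0 of 83 members passed at an adjusted p below 0.05, as did 0% of all genes tested (limma, smallest adjusted p = 0.624). At an unadjusted p below 0.05, 16 members were lower and 0 higher, against 1.66% and 6.21% of all genes. The members' median log2 difference was -0.26, against 0.11 over all genes, and 80 of 83 members were below 0, against 31.7% of all genes. In 52 members every activated shFoxM1 library lay below every activated shControl library, which held for 2.73% of all genes. This count was 69 with median-of-ratios scaling (5.78% of all genes) and 44 after removal of the GC and length trend (3.86%). On the nuclear protein-coding sum it was 26 (0.997%). After quantile normalization it was 4, a share near the 3.71% of all genes. Rescaling to an equal sum of all FPKM, which is dominated by a few short RNAs, gave 0 such members (0.0804% of all genes). It put the median at 0.21, where that of all genes was 0.50.

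In the fit of FPKM against length, a library's transcripts behaved as if shortened by 226 to 238 bases in activated shFoxM1 libraries and by 238 to 240 bases in activated shControl libraries. In quiescent libraries the offsets were 226 to 234 bases with shFoxM1 and 240 to 248 bases with shControl. Short transcripts such as those of the members are most open to this difference, and its part in the result was not tested beyond the removal of the length trend, which left medians of -0.22 in activated and -0.17 in quiescent cells.

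Members of the Rps27 family had the largest differences in activated cells. Rps27 was at 3647 to 4033 FPKM in the 4 activated shFoxM1 libraries and at 5854 to 6221 FPKM in the 3 activated shControl libraries, far apart, with a log2 difference of -0.65 ± 0.20 (limma unadjusted p = 0.00482, adjusted p = 0.624). Rps27rt had -0.81 ± 0.27 (limma unadjusted p = 0.0097), but its libraries overlapped, at 113, 65.3, 69.8 and 64.5 FPKM with shFoxM1 and 112, 212 and 101 FPKM with shControl. Next came Rpl22l1, a paralog of Rpl22, with 196, 191, 189 and 174 FPKM in activated shFoxM1 libraries and 327, 260 and 250 FPKM in activated shControl libraries (-0.56 ± 0.16, limma unadjusted p = 0.00275, adjusted p = 0.624). The small-subunit gene Rps14 (-0.51 ± 0.22) and the large-subunit genes Rpl38 (-0.50 ± 0.19) and Rpl39 (-0.49 ± 0.19) also lay apart between hairpins, with limma adjusted p-values of 0.629, 0.624 and 0.629. Rpl38, needed in mouse embryos for translation of some Hox mRNAs, had 2089, 2169, 2277 and 2258 FPKM in activated shFoxM1 libraries and 3074, 3148 and 3097 FPKM in activated shControl libraries. Only Rps2 (0.32 ± 0.16, limma adjusted p = 0.639, but -0.03 when summed with its pseudogenes), Rps15a and Rps19bp1 had differences above 0. More abundant members tended to differ more: across the 83 members the Spearman rho between the log2 difference and the mean FPKM was -0.58.

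In quiescent cells 81 of 83 members were lower with shFoxM1 than with shControl, against 57.1% of all genes, with a median of -0.18 against -0.02. Again 0 passed the adjusted test, as did 0% of all genes, and 4 had an unadjusted p below 0.05, all lower (1.61% of all genes were lower and 0.507% higher at that level). Only Rps3a1 and Rps4x, both of the small subunit, had groups that did not overlap, a share near the 2.45% of all genes. Rps27 (-0.50 ± 0.20), Rps3a1 (-0.49 ± 0.18), Rpl26 (-0.46 ± 0.19) and Rpl38 (-0.43 ± 0.19) had the largest differences, each with a limma adjusted p of 1. Rps3a1 and Rpl26 share sequence with more abundant copies, Rps3a2 and the pseudogene Gm15772. Summed with its copy, Rps3a1 was at 573 to 925 FPKM with shFoxM1 and 903 to 1131 FPKM with shControl, which overlap. Rpl26 summed with Gm15772 averaged 1537 ± 230 FPKM with shFoxM1 and 1730 ± 447 FPKM with shControl (SD), also with overlap. Rps27 had 3853, 3823, 3242 and 4434 FPKM in quiescent shFoxM1 libraries and 3950, 5200 and 7600 FPKM in quiescent shControl libraries, and without shControl replicate 3 its difference was -0.25. The members' median also moved with single libraries. It was -0.29 without quiescent shFoxM1 replicate 4, -0.29 without shControl replicate 1 and -0.10 without shFoxM1 replicate 3. Without shControl replicate 3 it was -0.07, level with the -0.07 of all genes. Without both libraries of highest summed level it was -0.16 against -0.04 over all genes. Quiescent and activated cells thus had medians of the same sign as deposited (not with an equal sum of all FPKM, which gave 0.21 in activated and -0.14 in quiescent cells), but in quiescent cells the distance from all genes rested on shControl replicate 3.

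The activation responses of shFoxM1 and shControl cells were not told apart by their test. Of 83 members, 0 passed at an adjusted p below 0.05 (limma, 0% of all genes), and 0 had an unadjusted p below 0.05 (3.48% of all genes). The median difference, response in shFoxM1 cells minus that in shControl cells, was -0.08 against 0.13 over all genes. Its sign turned with an equal sum of all FPKM (0.35), with quantile normalization (0.02), without quiescent shControl replicate 1 (0.04) and without quiescent shFoxM1 replicate 4 (0.02), and it was -0.23 without quiescent shControl replicate 3. The outermost members were Rps27rt at -0.61 ± 0.39, Rpl22l1 at -0.40 ± 0.22 and Rps2 at 0.43 ± 0.23, each with a limma adjusted p of 0.993. The median SE of a member here was 0.24, so differences of the size seen in the activation comparisons could be missed.

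**Figure D4:**
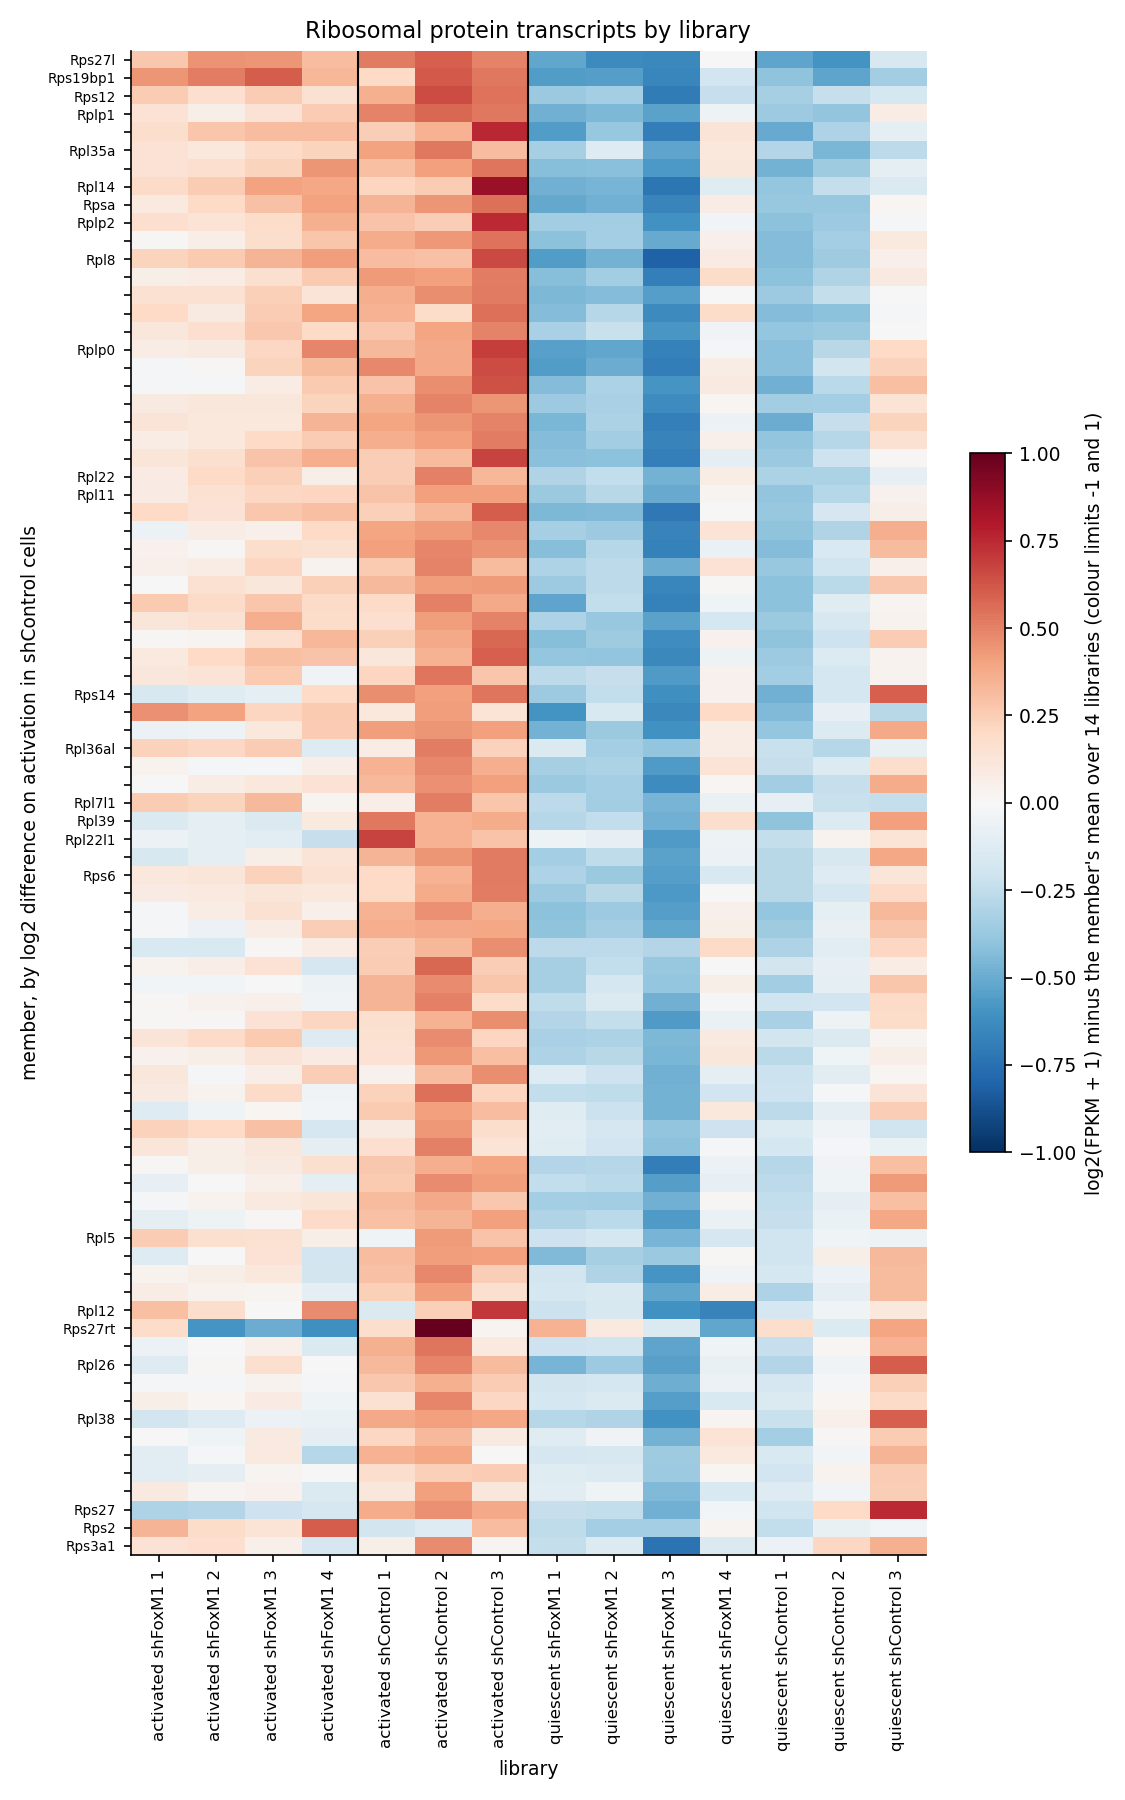
Each of the 83 ribosomal protein genes tested (vertical axis, ordered by log2 difference on activation in shControl cells, with symbols for genes described in the text) in each of the 14 libraries (horizontal axis), as log2(FPKM + 1) minus the gene's mean over libraries. Activated libraries on the left are mostly above the mean and quiescent ones below it. Quiescent shFoxM1 replicate 4 and quiescent shControl replicate 3 lie near or above the mean for most genes, and Rps27rt departs from the common pattern.

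In the Rps27 family, the level of Rps27l relative to Rps27 differed between groups, while that of Rps27rt overlapped in every comparison. Rps27 lies on chromosome 3 (GRCm38, 90212522 to 90213651, minus strand), Rps27l on chromosome 9 (66946086 to 66949516, plus strand) and Rps27rt elsewhere on chromosome 9 (114982366 to 114982739, minus strand), where its gene and its transcript are both 374 bases long. As a share of the Rps27 FPKM, Rps27l was at 13.5 to 16.2% in activated shFoxM1 libraries, 10.5 to 10.7% in activated shControl libraries, 7.35 to 9.93% in quiescent shFoxM1 libraries and 5.15 to 7.69% in quiescent shControl libraries. The share was thus higher in activated than in quiescent cells with either hairpin, and higher with shFoxM1 than with shControl in activated cells, without overlap. A ratio within a library does not depend on library scaling, but it can depend on GC content and transcript length. The longest transcript has 43.1% GC and 575 bases for Rps27l, and 55.4% GC and 672 bases for Rps27. The part of GC content and length in this ratio was not tested. Exact permutation tests on the log2 ratio (two-sided) gave p = 0.0286 for activation in shFoxM1 cells, p = 0.0286 for shFoxM1 in activated cells and p = 0.0571 for shFoxM1 in quiescent cells. For activation in shControl cells the exact p was 0.1, the smallest that 3 against 3 libraries allow, and 0.0286 is the smallest for 4 against 3 libraries and for 4 against 4. The ratios were chosen after their values were seen, and over the 20 ratio tests run the Benjamini-Hochberg adjusted value was at best 0.114. Rps27rt was at 1.60 to 3.09% of Rps27 in activated shFoxM1 libraries and 1.71 to 3.42% in activated shControl libraries. In quiescent libraries it was at 1.55 to 3.27% with shFoxM1 and 1.72 to 2.83% with shControl (exact permutation p = 0.4 to 0.7 over the comparisons).

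**Figure D5:**
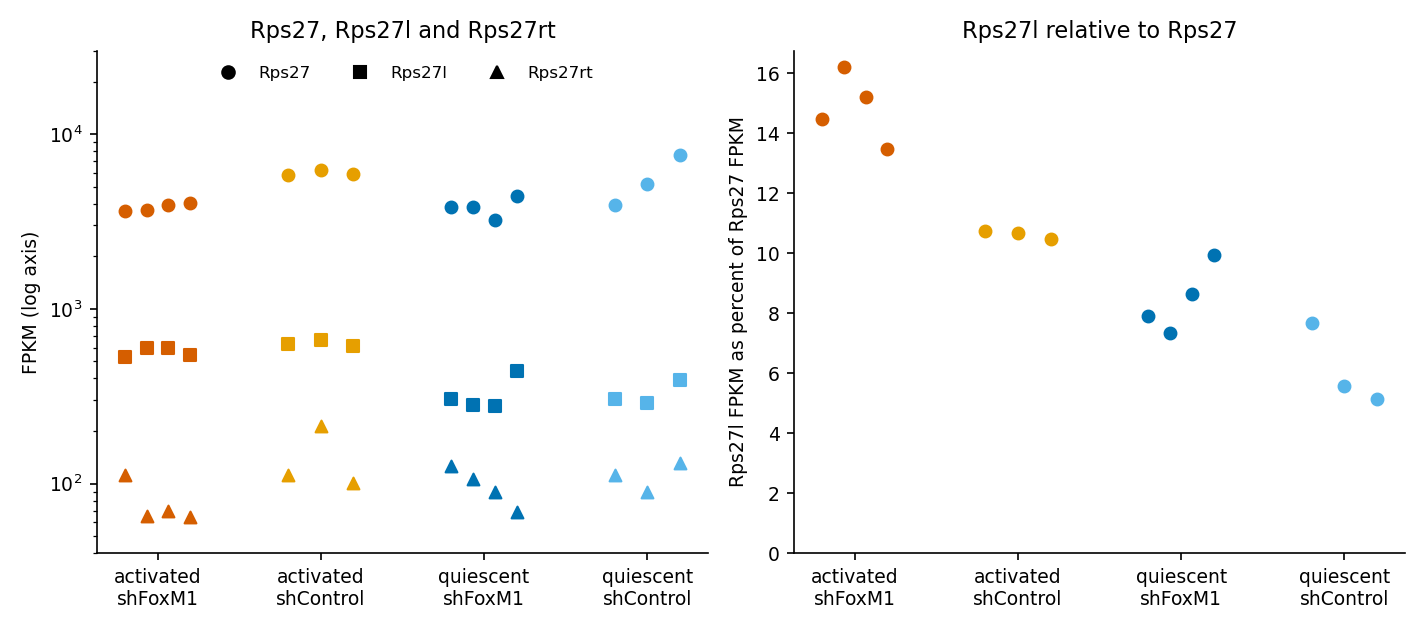
FPKM of Rps27, Rps27l and Rps27rt in each library on a log axis (left panel), and Rps27l as a percent of Rps27 (right panel, from 0). Points are libraries. The share was 13.5 to 16.2% in activated shFoxM1 libraries and 10.5 to 10.7% in activated shControl libraries, above 7.35 to 9.93% and 5.15 to 7.69% in quiescent shFoxM1 and shControl libraries.

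Rpl22 and Rpl22l1 are another such pair, in which Rpl22 is known in mice to hold down Rpl22l1. Rpl22 rose on activation by 0.38 ± 0.13 in shFoxM1 cells and 0.60 ± 0.16 in shControl cells (limma adjusted p = 0.043 and 0.0115). Rpl22l1 had 188 ± 9.39 FPKM in activated and 182 ± 29.4 FPKM in quiescent shFoxM1 cells (SD, n = 4 each), and 279 ± 41.7 FPKM in activated and 203 ± 26.7 FPKM in quiescent shControl cells (SD, n = 3 each). Its log2 difference in shControl cells was 0.46 ± 0.17 (limma adjusted p = 0.053), just outside the threshold, though its libraries there did not overlap. Relative to Rpl22, Rpl22l1 was at 18.5 to 21.4% in activated and 21.7 to 28.1% in quiescent shFoxM1 libraries (exact permutation p = 0.0286, adjusted 0.114). With shControl it was at 21.2 to 31.8% in activated and 24.9 to 30.1% in quiescent libraries (exact permutation p = 0.5). Rpl36al, a relative of Rpl36a, rose in shControl cells (0.47 ± 0.17, limma adjusted p = 0.0473) and had 0.34 ± 0.14 in shFoxM1 cells (adjusted p = 0.0856). Rpl7l1 rose with both hairpins, by 0.49 ± 0.13 in shFoxM1 cells and 0.46 ± 0.15 in shControl cells (limma adjusted p = 0.0112 and 0.0326).

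Many members share sequence with other genes, so their reads can be split among copies. Of all 50-base words in a member's transcripts, a median of 20.4% also occur in transcripts of another gene, and in 5 members the gene that shares most of them has a higher mean FPKM than the member. Rps27rt is the extreme case, with 91.1% of its words found in Rps27. Its 104 FPKM stood beside 4668 FPKM of Rps27, and its values are uncertain for that reason. Rps2 was at 32.3 to 45.1 FPKM in activated shFoxM1 libraries, 25.7 to 36.6 FPKM in activated shControl libraries, 22.9 to 29.9 FPKM in quiescent shFoxM1 libraries and 24.5 to 28.7 FPKM in quiescent shControl libraries. The gene annotated as its pseudogene, Rps2-ps10, held far more, with means of 3871 ± 392 FPKM in activated shFoxM1 cells, 3971 ± 621 FPKM in activated shControl cells, 2292 ± 624 FPKM in quiescent shFoxM1 cells and 2442 ± 442 FPKM in quiescent shControl cells. Summed, the 2 gave 3421 to 4371 FPKM in activated shFoxM1 libraries and 3606 to 4724 FPKM in activated shControl libraries, against 1832 to 3240 FPKM in quiescent shFoxM1 libraries and 2210 to 2980 FPKM in quiescent shControl libraries. The sum did not overlap between activated and quiescent libraries of either hairpin, whereas Rps2 as listed rose in shFoxM1 cells (0.54 ± 0.15, limma adjusted p = 0.0135) and overlapped in shControl cells. Rps3a1 and its copy Rps3a2 gave 825 to 1043 FPKM in activated and 573 to 925 FPKM in quiescent shFoxM1 libraries, and 1010 to 1298 FPKM in activated and 903 to 1131 FPKM in quiescent shControl libraries, so their sum overlapped too. Of the 16 tested members with under 10% of words shared, 9 rose on activation in shFoxM1 cells and 8 in shControl cells, beside 26 of the other 67 in shFoxM1 cells and 27 in shControl cells. When each member was summed with the pseudogenes named after it, 34 rose in shFoxM1 cells and 36 in shControl cells, where 2280 and 1461 of all 12432 genes rose.

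RefSeq promoter windows (GRCm38.p6, 250 bases before to 50 after the annotated start) matched 66 of the 86 members. A pyrimidine run, meaning a C within 10 bases of the start followed directly by at least 5 C or T, was present in 53.0% of the matched members and in 22.4% of 16455 protein-coding genes with windows of the same length. Below are the 40 bases before and 20 after the start for the Rps27 family, for Rps12 and Rpl14, which rose with both hairpins, and for Rpl24 and Rpl10, which were called with neither. Capitals mark the run where one was found. These are examples only, since Rpl27 and Rps19bp1 also rose with both hairpins and had no run in their windows. The counts over all tested members with a window follow the sequences.
Rps27 (chr3:90213629-90213688, minus strand): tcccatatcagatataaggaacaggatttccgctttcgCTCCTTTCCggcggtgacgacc
Rps27rt (chr9:114982720-114982779, minus strand): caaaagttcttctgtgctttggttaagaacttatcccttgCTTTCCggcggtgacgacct
Rps27l (chr9:66946046-66946105, plus strand): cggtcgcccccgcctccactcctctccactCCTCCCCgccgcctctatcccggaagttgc
Rps12 (chr10:23787190-23787249, minus strand): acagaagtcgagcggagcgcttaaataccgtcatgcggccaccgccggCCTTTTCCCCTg
Rpl14 (chr9:120571477-120571536, plus strand): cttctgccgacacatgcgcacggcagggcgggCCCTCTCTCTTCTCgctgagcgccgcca
Rpl24 (chr16:55966235-55966294, plus strand): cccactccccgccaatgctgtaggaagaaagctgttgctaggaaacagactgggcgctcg
Rpl10 (chrX:74270776-74270835, plus strand): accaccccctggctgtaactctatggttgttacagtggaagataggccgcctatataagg
Rps27 and Rps27rt share an unbroken stretch of 38 bases after the start, including the end of the run, but at most 10 bases in a row before it. The run marked in Rps27l lies wholly before the annotated start and is cut at the edge of the search, since pyrimidines precede it. Another Rps27l window had no run. Of tested members with a run, 17 of 34 rose on activation in shFoxM1 cells and 14 of 34 in shControl cells, and of those without, 11 of 29 in shFoxM1 cells and 12 of 29 in shControl cells.

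Other motifs were counted on both strands of the same windows. CGGAAG, the core bound by ETS factors, was in 66.7% of members and 24.3% of protein-coding genes. A palindrome of housekeeping promoters, TCTCG followed directly by its reverse complement, was in 9.09% of members and 0.772% of protein-coding genes. The E-box CACGTG, to which Myc binds, was in 9.09% and 9.18%. Motifs linked to Foxm1 and its partners were not more common, with the cell cycle homology element TTTGAA in 7.58% of members and 17.6% of protein-coding genes, and the forkhead core TGTTTA in 9.09% and 13.1%. A match is a description of the letters and no evidence of binding.

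On the deposited scale, genes of ribosome assembly and of mitochondrial translation moved with the members on activation. The other scalings were not run on these lists. Of 78 mitochondrial ribosomal protein genes, which serve translation inside mitochondria, 43 rose in shFoxM1 cells and 47 in shControl cells, and 0 fell, beside 18.3% of all genes that rose with shFoxM1 and 11.7% with shControl. Mrpl12 led in shFoxM1 cells and Mrps25 in shControl cells by p, with log2 differences of 0.93 and 1.11. Of 26 tested genes of ribosome assembly, 21 rose in shFoxM1 cells and 12 in shControl cells, and 0 fell. Nhp2, a protein of small nucleolar RNPs, had the largest rise in that list in shControl cells at 1.55, and 1.34 in shFoxM1 cells. All 5 dedicated ribosomal protein chaperones tested rose in shFoxM1 cells and 4 in shControl cells, among them Grwd1, which escorts Rpl3 (1.32 in shFoxM1 and 0.94 in shControl cells), and Tsr2, which escorts Rps26 (0.95 in shFoxM1 and 0.85 in shControl cells).

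On the same scale 18.3% of all genes rose in shFoxM1 cells and 11.7% in shControl cells. Of 21 further mRNAs known for a terminal oligopyrimidine tract, 8 rose in shFoxM1 cells and 6 in shControl cells. Among them were the nucleolar protein Npm1, also counted in the assembly list (1.04 in shFoxM1 and 1.00 in shControl cells), and the elongation factor subunit Eef1d (0.90 in shFoxM1 and 0.80 in shControl cells). Of the 12 genes of mTOR signalling and tract control, few were called. In shFoxM1 cells 3 rose on activation, a share near that of all genes, namely the translation repressors Eif4ebp2 and Eif4ebp1 and the tract-binding Larp1 (0.62, 0.99 and 0.56), and in shControl cells 1 fell, the mTOR partner Rptor (-0.64). With shFoxM1 against shControl, 0 genes of these lists passed in either state. In activated cells the median log2 difference was -0.09 for mitochondrial ribosomal proteins, -0.06 for the other tract mRNAs, 0.16 for assembly genes, 0.19 for chaperones and 0.36 for the mTOR list, beside -0.26 for the members and 0.11 for all genes tested. Genes of ribosome assembly and ribosomal protein genes thus had medians of opposite sign in that comparison on the deposited scale.

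Members moved together from library to library. After subtraction of group means, the median Pearson r between 2 members over 14 libraries was 0.75, and 79.3% of the 3403 pairs were above 0.5. All members of a library share its scaling, which enters these correlations. They were not computed for pairs of other genes, so they are not shown to be particular to the members. The median SD within groups was 0.20 on the log2 scale, against 0.27 over all genes tested. Rps27rt stood outside the common pattern, with a mean r of -0.02 with the other members, followed by Rpl12 at 0.13 and Rpl4 at 0.16.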

How the data were processed

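The deposited table holds FPKM values for 49585 genes in 14 libraries. Its name gives GENCODE and RSEM, and mm10, HTSeq, Cufflinks 2.1.1 and Bowtie 0.12.9 are listed in the submitters' processing notes. Which of them made the FPKM values that the authors deposited is not given in the sources used here, nor are read filters, multi-mapping or strand. Symbols, types and positions came from GENCODE M21 on GRCm38, where 259 identifiers had no match. Groups follow the sample titles and labels.

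Values were tested as log2(FPKM + 1) with limma 3.58.1 in R 4.3.3, in 1 model of 4 group means with a trended empirical Bayes step. Genes needed at least 1 FPKM in at least 3 libraries, and p-values were adjusted by Benjamini-Hochberg over all genes tested. The test was tried on simulated data first. The 5 comparisons were activation with each hairpin, shFoxM1 against shControl in each state, and the difference between the activation responses. No counts were at hand, so no counting intervals are given. Depth was estimated from low values of genes with 1 transcript of 300 to 1200 bases, of which 93.0 to 95.1% lay within 0.25 of a whole step.

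The members, lists and tests were chosen with earlier results of these data known. Named are paralogs, the 6 highest and 6 lowest members by difference and by level, members with a known extra role, and the 3 smallest p of each further list. From these the text gives examples, and 1 is not reported here. Alternatives were other pseudocounts, filters and scalings, GC and length correction, the replicate number as a block, and leaving out libraries. Summing with pseudogenes, scaling without the members and leaving out 2 libraries together were added after seeing the data. Promoter motifs and shared 50-base words were counted in Python 3.11.15.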

Additional observations from a re-analysis of the deposited data

Results flagged for a closer look

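In groups of 4 libraries a single far value was looked for in 54 sets of values of the named members and ratios, and 6 were found. Chance alone marks about 1 in 20. Rps27rt was at 113 FPKM in activated shFoxM1 replicate 1, against 64.5 to 69.8 FPKM in the other 3, and its log2 ratio to Rps27 was -5.02 there, against -5.97 to -5.81. In quiescent shFoxM1 replicate 4, Rps27l was at 440 FPKM against 280 to 305 FPKM in the others, and Rplp1 at 3511 FPKM against 2510 to 2671 FPKM. In quiescent shFoxM1 replicate 3, Rpl22l1 was at 138 FPKM against 193 to 198 FPKM, and Rpl5 at 205 FPKM against 244 to 251 FPKM.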

How the results depend on the processing

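Members called lower stayed at 0 in both activations outside quantile normalization, and 0 were called in the knockdown comparisons and in the difference between responses under every alternative run. Members called higher on activation, 35 in shFoxM1 and 35 in shControl cells, changed as follows. Median-of-ratios scaling gave 21 and 42, where 1982 and 2017 of all 12432 genes rose. Quantile normalization gave 7 (with 4 lower) and 3 (with 6 lower), where 2070 and 1802 of all genes rose. An equal sum of all FPKM gave 51 and 2, where 1940 and 323 of all genes rose, so the 2 are a share near that of all genes. An equal nuclear protein-coding sum gave 5 and 5 (945 and 592 of all genes), and that sum without the members 3 and 5 (986 and 656). GC and length removal gave 27 and 23 (2666 and 2121 of 12410 genes), and no filter on low values 25 and 22 (2034 and 1191 of 24415 genes). Only the groups compared gave 30 and 20 (2133 and 1196 of 12432 genes), and shFoxM1 libraries 1 to 3 gave 54 and 50 (2572 and 1812). Leaving out both quiescent libraries of highest summed level, which were picked for that level, gave 64 and 67. Leaving out 1 library at a time gave 21 to 56 and 8 to 52. In the fits with those counts, 1599 and 2459 of all genes rose in shFoxM1 cells, and 801 and 1042 in shControl cells. The cause was not tested. Scaling moved the median of all genes in activation by up to 0.30, and calls of all genes in shControl cells were 41.5% higher as deposited, 54.5% with median-of-ratios, 54.3% with quantile, 11.4% with an equal sum and 12.4% with the nuclear sum.

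Over nuclear protein-coding genes alone the members' share was 19.5% in activated shFoxM1, 22.5% in activated shControl, 18.9% in quiescent shFoxM1 and 21.0% in quiescent shControl cells. Replicate numbers were not seen to pair libraries: 8 of 19 same-numbered pairs had a correlation over 0.1 (-0.23 to 0.38). Other pairs ran from -0.68 to 0.67, and the best match had the same number for 4 of 14 libraries. A shared batch was not tested. With the replicate block 35 and 35 members rose in shFoxM1 and shControl cells (2434 and 1632 of all 12432 genes), 33 of each shared with the fit without it. The group-only fit gives no value for the difference between responses.

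Signs turned for few named members. On activation in shFoxM1 cells Rps27 was -0.042 with median-of-ratios, -0.25 with quantile, -0.31 with the nuclear sum, -0.30 without the members in it, and -0.11 after GC and length removal with or without the block. Leaving out 1 library at a time gave -0.077 to 0.074. In shControl cells it was -0.16 with an equal sum, -0.20 with the nuclear sum, -0.18 without the members, -0.052 after GC and length removal with or without the block, and -0.071 to 0.40 with 1 library left out at a time. Quantile normalization gave -0.032 for Rpl11 and -0.095 for Rpl22 in shFoxM1 cells, and -0.00458 for Rpl5, -0.14 for Rpl11, -0.081 for Rps6 and -0.083 for Rpl22 in shControl cells. Rpl5 in shControl cells was also -0.040 with the nuclear sum and -0.013 without the members. Summed with its pseudogenes, Rps2 was -0.028 for shFoxM1 in activated cells, and with an equal sum Rpl22l1 was 0.025 in the difference between responses.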
